A study of Mus musculus with 24 samples.

Results

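The regions described here are stretches of mouse liver chromatin that were listed as enriched for H3K4me3 in diethylnitrosamine-treated wild type mice and overlapped no region of the list from treated Smyd3 knockout mice. They were found by intersecting the deposited lists and keeping every wild type region that shared no base with a knockout region. There were 2123 of them, out of 15579 regions in the wild type list, while 13456 wild type regions overlapped the knockout list and 4127 of 17491 knockout regions overlapped no wild type region. Genes were assigned to them by a start site within 1000 bp, which gave 520 of the 37583 genes of the RNA table, or 1.38%. The lists hold positions and a score of 0 in every line, with no height or significance, so a region listed in 1 genotype only can still carry signal below the caller's threshold in the other.

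H3K4me3, histone H3 trimethylated at lysine 4, marks the start sites of genes that are transcribed or ready to be, and it is laid down mainly by the SET1 and MLL complexes, which are drawn to stretches rich in unmethylated CG. Smyd3 is a SET and MYND domain lysine methyltransferase that has been described as a writer of this mark and, in other work, as an enzyme that methylates H4K5 and cytoplasmic proteins. In hepatocytes the mark lies at the start sites of liver genes, and genes of the fetal liver regain it when they are switched on again.

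Livers came from mice labelled C57BL6/CBA at 8.5 months of age. The RNA groups, of 3 mice each, were knockout mice given diethylnitrosamine (DEN_KO), wild type mice given it (DEN_WT), untreated knockout mice (KO) and untreated wild type mice (WT). DEN is a liver carcinogen that gives rodents hepatocellular carcinoma late after exposure, and was given once, intraperitoneally, at 25 mg/kg. Smyd3 was disrupted by a gene trap lying in its intron 5, from 1 embryonic stem cell clone. H3K4me3 was precipitated from treated knockout and treated wild type livers and Smyd3 from treated wild type livers, with 2 replicates each and 1 list per group. No H3K4me3 list of untreated livers was used here. Livers were divided for RNA and chromatin, and whether tumour and surrounding tissue were kept apart is not stated in the sources used here.

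The targeted gene was checked first. Smyd3 read 12, 3 and 8 in DEN_KO, 57, 71 and 74 in DEN_WT, 29, 17 and 22 in KO and 79, 89 and 59 in WT, in normalized read counts rounded to whole numbers by the authors, the unit of all RNA values below. No knockout library reached the lowest wild type one, and the difference passed the threshold in treated livers (limma adjusted p = 0.00018, with a log2 fold change of -3.13 ± 0.41 SE) and not in untreated ones (-1.71 ± 0.41, adjusted p = 0.065). The start site of Smyd3 lies in a region present in both lists and in a Smyd3 peak, and exons before the trap can still be read. The libraries held sums of 22320634 to 28973396 normalized counts, and the exact read depth behind a value is unknown. Within a group, pairs of libraries had r of 0.956 to 0.978 over the tested genes. Hepatocyte markers (9 of 9 in the table, among them Alb and Apoa1) were high in every library, and all 9 start in regions of both lists. They summed to 2014948 to 2884937 in DEN_KO and 3597130 to 5520412 in DEN_WT, without overlap, and to 2021988 to 3344245 in KO and 2335785 to 2562457 in WT. This sum was thus lower in DEN_KO than in DEN_WT, although by the test used below 1 of the 9 fell and 2 rose. Over a wider list of hepatocyte identity genes 1 of 34 tested genes fell and 11 rose (background 17.4% and 16.4% of all tested genes), with a median log2 fold change of 0.18. The part of this sum in the results was not tested.

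To show what lies at such starts, sequences are given for genes with large RNA differences. The 6 stretches shown run from 250 bases before to 50 bases after the start of genes at wild-type-only regions that were lower in DEN_KO than in DEN_WT. Among such genes with 1 promoter entry in RefSeq, they are the 3 of largest change with a Smyd3 peak in the region (Gldn, Phgdh and Apln) and the 3 without one (Wfdc15b, Akr1c18 and Tspan8). They are from RefSeq on build GRCm38.p6, in the direction of the gene, with CG pairs in capitals, at chr9:54286236-54286535 (plus strand), chr3:98339920-98340219 (minus), chrX:48034804-48035103 (minus), chr2:164221614-164221913 (minus), chr13:4150597-4150896 (minus) and chr10:115817034-115817333 (plus). The region lists themselves are on mm9, an earlier build.
Gldn: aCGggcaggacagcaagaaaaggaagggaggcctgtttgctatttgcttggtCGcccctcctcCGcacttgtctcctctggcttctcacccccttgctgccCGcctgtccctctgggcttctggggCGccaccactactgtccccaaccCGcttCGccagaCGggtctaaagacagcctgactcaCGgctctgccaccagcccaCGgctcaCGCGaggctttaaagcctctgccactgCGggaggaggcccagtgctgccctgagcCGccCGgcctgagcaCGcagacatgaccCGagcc
Phgdh: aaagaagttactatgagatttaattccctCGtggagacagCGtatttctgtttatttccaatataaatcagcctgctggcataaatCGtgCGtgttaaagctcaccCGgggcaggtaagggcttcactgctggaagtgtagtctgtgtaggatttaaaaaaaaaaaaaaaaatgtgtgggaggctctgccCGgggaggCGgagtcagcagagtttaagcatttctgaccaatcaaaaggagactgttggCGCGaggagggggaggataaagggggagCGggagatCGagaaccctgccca
Apln: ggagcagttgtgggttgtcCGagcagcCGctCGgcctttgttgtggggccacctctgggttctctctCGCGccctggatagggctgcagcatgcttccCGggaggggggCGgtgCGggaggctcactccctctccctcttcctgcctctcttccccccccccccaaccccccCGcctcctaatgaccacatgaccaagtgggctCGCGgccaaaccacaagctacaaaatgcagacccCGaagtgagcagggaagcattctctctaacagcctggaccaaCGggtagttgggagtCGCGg
Wfdc15b: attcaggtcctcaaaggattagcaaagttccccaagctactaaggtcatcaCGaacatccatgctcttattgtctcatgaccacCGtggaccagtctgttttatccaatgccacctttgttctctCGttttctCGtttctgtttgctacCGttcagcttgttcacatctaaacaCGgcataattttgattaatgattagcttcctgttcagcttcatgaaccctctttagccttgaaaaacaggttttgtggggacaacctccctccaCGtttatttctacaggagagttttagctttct
Akr1c18: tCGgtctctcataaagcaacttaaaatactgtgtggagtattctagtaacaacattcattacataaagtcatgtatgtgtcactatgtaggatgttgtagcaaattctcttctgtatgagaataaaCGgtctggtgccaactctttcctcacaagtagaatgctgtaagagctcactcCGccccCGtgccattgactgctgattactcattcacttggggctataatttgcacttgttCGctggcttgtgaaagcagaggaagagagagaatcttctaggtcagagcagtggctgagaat
Tspan8: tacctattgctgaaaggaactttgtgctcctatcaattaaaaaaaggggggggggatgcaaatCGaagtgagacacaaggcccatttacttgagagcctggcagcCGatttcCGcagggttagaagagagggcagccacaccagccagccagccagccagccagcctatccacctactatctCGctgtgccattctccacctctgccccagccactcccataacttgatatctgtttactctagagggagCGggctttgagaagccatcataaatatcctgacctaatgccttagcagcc

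The starts differed in CG content. Gldn held 17 CG pairs in 300 bases, Apln 15 and Phgdh 11, while Wfdc15b held 7 and Akr1c18 and Tspan8 held 5 each. The median over the 22862 genes with 1 promoter entry was 7. The letters CCCTCC, described for human SMYD3 as a bound sequence, were searched on both strands and occurred in the stretches of Gldn, Phgdh, Apln and Wfdc15b and not in those of Akr1c18 and Tspan8. They occurred in 37.5% of the 22862 promoters, and a match says nothing about binding. RefSeq promoter entries were found for 295 of the 403 protein-coding genes at wild-type-only regions, under 80%, so no sequence share over the genes is given.

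The wild-type-only regions were short and mostly away from gene starts. Their median length was 437 bp (interquartile range 221 to 961 bp, 169 to 10190 bp), against 1619 bp for wild type regions that overlapped the knockout list and 583 bp for knockout-only regions. They covered 1.57 Mb, against 25.4 Mb for the shared wild type regions and 3.98 Mb for the knockout-only regions. A gene start lay within 1000 bp of 471 of them (22.2%), against 77.4% of the shared regions and 17.8% of the knockout-only regions. Another 635 lay in gene bodies and 1017 were intergenic. At start sites the wild-type-only regions were longer, with a median of 917 bp, against 1753 bp for shared regions at start sites.

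Few of them lay next to a knockout region. The distance to the nearest one had a median of 37827 bp and ran from 48 to 1565886 bp, with 34 regions within 1000 bp and 535 beyond 100000 bp. Nearest to the overlap rule lay chr2:152560563-152561219, at 48 bp from a knockout region, and on its other side chrX:120989399-120989896, of whose 498 bp a knockout region covered 14.

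Smyd3 peaks of treated wild type livers overlapped 496 wild-type-only regions (23.4%), 73.7% of the shared regions and 743 of the 4127 knockout-only regions. Among regions at start sites the shares were 65.0% (306 of 471) for wild-type-only, 83.9% for shared and 37.1% for knockout-only regions. The share changed with length. Among start-site regions of 500 to 1000 bp it was 67.5% of 151 wild-type-only, 72.3% of 1396 shared and 42.5% of 174 knockout-only regions. At 1000 to 2000 bp it was 72.7% of 154, 85.6% of 4653 and 41.6% of 226. Both the Smyd3 peaks and the wild type H3K4me3 regions come from wild type livers and the knockout-only regions do not, and how much of the gap this sets was not tested.

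**Figure D1:**
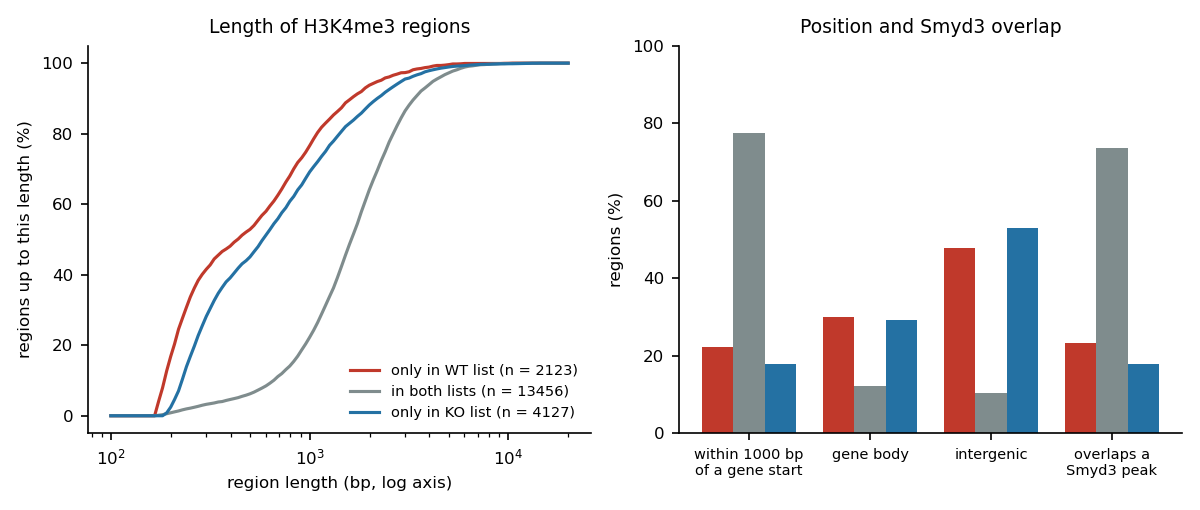
Left, share of regions (vertical axis, %) up to each length (horizontal axis, bp, log scale) for regions listed in wild type only, in both lists and in the knockout only. Right, share of regions of each class within 1000 bp of a gene start, in gene bodies, between genes, and overlapping a Smyd3 peak; wild-type-only regions (median 437 bp) lie left of the shared ones (median 1619 bp) and 22.2% of them are at a start site.

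Some wild-type-only regions crowded into gene clusters. There were 7 windows of 1 Mb with 10 or more each, 137 regions or 6.45% in all. The window at 19 to 20 Mb of chromosome 8 held 29, and 16 of its 32 gene starts belong to defensins, antimicrobial peptides of epithelia. Adjoining windows at 120 to 123 Mb of chromosome X held 24, 20 and 22, around Astx genes, and also 35, 28 and 24 knockout-only regions. Windows on chromosome 5 at 14 to 16 Mb held 11 and 19 regions around Speer genes, with 1 knockout-only region each, and the window at 146 to 147 Mb of chromosome 4 held 12. These clusters hold many near-identical gene copies, and read placement among them was not tested. Of the 276 genes tested for RNA below, 275 are at regions outside these windows.

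The 520 genes comprised 403 protein-coding genes, 37 lincRNAs, 36 pseudogenes and 13 antisense genes. Of them 363 had their start inside the region, 5 also had a knockout region within 1000 bp of the start, and 46 regions were shared by 2 or more genes, so the genes are not independent of each other. Most were low in liver, as were most genes of the table. In WT 300 of the 520 stayed below 10 in all 3 libraries, and so did 21660 of all 37583 genes. The filter of at least 10 in at least 3 of the 12 libraries was passed by 276 (53.1%; 43.8% of all genes), which were tested. Another 34 were listed at 0 throughout (7930 of all genes). Of the 276, 50 passed through the DEN_WT libraries alone and could hardly have come out as anything but lower in DEN_KO, so counts are also given without them.

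In treated livers more of the genes at wild-type-only regions fell than rose in the knockout. A gene was called at an adjusted p below 0.05 in limma, fitted on log2(value + 1) over all 16471 tested genes, a scale that understates the change of low genes. At that threshold 98 of the 276 fell in DEN_KO against DEN_WT (35.5%; background 17.4% of all tested genes) and 22 rose (7.97%; background 16.4%), with 120 called in either direction (background 33.9%). The median log2 fold change was -0.82, against -0.06 over all tested genes, -0.10 over genes at shared regions and 0.11 over genes at knockout-only regions. Without the genes that passed through DEN_WT alone, 73 of 226 fell (32.3%; background 16.8%) and 22 rose (9.73%; background 17.0%), with a median of -0.57. Without DEN_WT 2 the number that rose was 14. The H3K4me3 lists and the RNA come from the same kind of liver, with mouse numbers 1 and 2 in both, and in bulk tissue fewer cells of a type and less RNA per cell cannot be told apart.

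**Figure D2:**
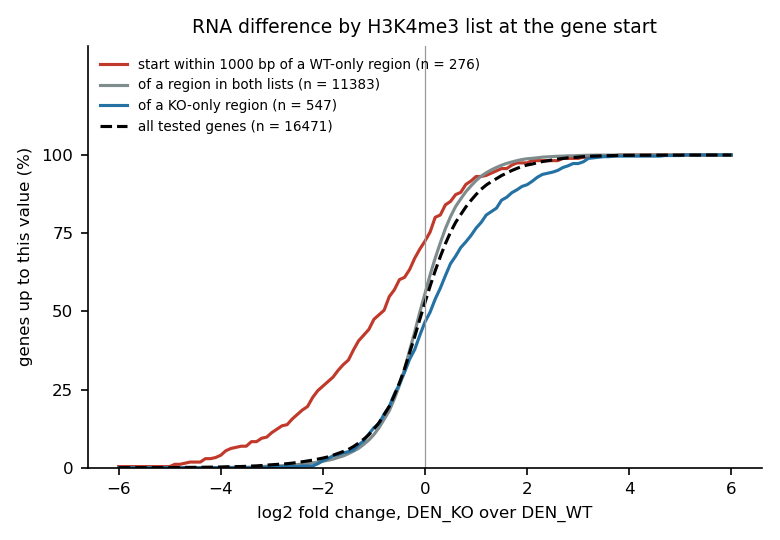
Share of tested genes (vertical axis, %) up to each log2 fold change of DEN_KO over DEN_WT (horizontal axis), for genes starting within 1000 bp of a wild-type-only region, a shared region or a knockout-only region, and for all tested genes. The curve of the 276 genes at wild-type-only regions lies to the left, with a median of -0.82 against -0.06 over all genes.

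The difference was largest at the longest regions. Below 500 bp 13 of 56 genes fell and 10 rose (median -0.20), and at 500 to 1000 bp 24 of 84 fell and 7 rose (median -0.65). At regions of 1000 bp or longer 61 of 136 fell and 5 rose, with a median of -1.41. The shares below 500 bp, 23.2% lower and 17.9% higher, were near those over all tested genes (17.4% and 16.4%). Without the genes that passed through DEN_WT alone, 12 of 53, 16 of 64 and 45 of 109 fell in the same order of length, with medians of -0.18, -0.18 and -1.06. With a Smyd3 peak in the region, 64 of 180 genes fell (35.6%) and 11 rose (6.11%), with a median of -0.83. Without one, 34 of 96 fell (35.4%) and 11 rose (11.5%), with a median of -0.82. In DEN_KO against KO the 2 sets differed more, with 23 of the 180 higher (12.8%) and 24 of the 96 (25.0%). The genes that passed through DEN_WT alone are in these counts by Smyd3 peak.

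Most of the steepest differences were in genes that read low in untreated liver. Gldn, which encodes gliomedin, an extracellular protein known from the nodes of peripheral nerves, read 18, 36 and 5 in DEN_KO, 608, 1821 and 1252 in DEN_WT, 6, 0 and 3 in KO and 3, 2 and 1 in WT. Its start lies inside the 2599 bp region chr9:54133564-54136162 (mm9), 211049 bp from the nearest knockout region and holding 1 Smyd3 peak. All 3 DEN_WT libraries stood above all others, and the DEN_KO values overlapped with those of untreated livers (log2 fold change of DEN_KO over DEN_WT -6.11 ± 0.75 SE, adjusted p = 0.00013 in limma).

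Gpc3 encodes glypican-3, a cell-surface proteoglycan of fetal liver and a clinical marker of hepatocellular carcinoma. It read 153, 146 and 113 in DEN_KO, 2224, 3385 and 2704 in DEN_WT, 53, 59 and 18 in KO and 18, 26 and 18 in WT. Its region, chrX:49965443-49967637 (2195 bp, 1 Smyd3 peak), was 176746 bp from any knockout region. DEN_KO livers held about the same level among themselves and did not overlap with DEN_WT (-4.32 ± 0.37, limma adjusted p = 2.8e-05).

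Enzymes and secreted proteins filled much of the rest of the top 12. Phgdh, the enzyme that opens serine synthesis, read 9, 33 and 18 in DEN_KO against 186, 1118 and 847 in DEN_WT (-4.92 ± 0.61, limma adjusted p = 0.00014). Akr1c18, a hydroxysteroid dehydrogenase that inactivates progesterone, averaged 96.3 ± 44.8 in DEN_KO and 2263 ± 608 in DEN_WT (SD, n = 3 each), and Alox5, which makes leukotrienes, 42.0 ± 32.1 and 661 ± 314. Akr1c18 has close relatives in the same gene family, among which reads may be split.

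The protease inhibitor family member Wfdc15b read 39, 37 and 9 in DEN_KO against 701, 874 and 809 in DEN_WT (-5.0 ± 0.44, limma adjusted p = 2.9e-05). Apln, the peptide ligand of the apelin receptor, read 6, 10 and 4 against 362, 126 and 67. For both genes the groups lay far apart, although Apln spread widely within DEN_WT. The sulfotransferase family member Sult4a1, the unconventional myosin Myo5c, the tetraspanin Tspan8, the transmembrane glycoprotein Cdcp1 and the lincRNA Gm13387 complete the 12, with log2 fold changes of -4.76 to -4.00. None of the 12 had overlapping DEN_KO and DEN_WT values. Gldn, Phgdh, Sult4a1, Apln and Gm13387 passed the filter through the DEN_WT libraries alone, so their direction was nearly set beforehand.

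Among genes that rose, levels were mostly lower, and their spread differed from gene to gene. Acot5, a peroxisomal acyl-CoA thioesterase, read 18, 77 and 45 in DEN_KO against 2, 4 and 1 in DEN_WT (3.72 ± 0.88, limma adjusted p = 0.006). Lgals1, the glycan-binding protein galectin-1, read 358, 378 and 190 against 98, 48 and 80 (2.02 ± 0.42, adjusted p = 0.0029), and the secreted signal Wnt5b 166, 323 and 371 against 96, 60 and 80 (1.80 ± 0.29, adjusted p = 0.0006). The nuclear receptor Esrrg rose by 2.01 ± 0.48 (adjusted p = 0.0062), on levels of 48.7 ± 4.16 in DEN_KO and 11.7 ± 3.51 in DEN_WT. In each of these 4 genes the groups did not overlap.

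The other 8 of the 12 that rose were mostly of kinds whose reads can be shared between copies. They were the histone genes Hist1h2bj and Hist1h2ab, the ribosomal protein copies Rps26-ps1 and Rps19-ps3, the pseudogene Gm4459, the small RNAs U3 and mmu-mir-2134-1, and Zfp296, a zinc finger protein. Their fold changes are uncertain for that reason, Zfp296 excepted. Zfp296, at 27.0 ± 16.4 in DEN_KO and 3.00 ± 1.00 in DEN_WT, lost its call when any 1 of 6 libraries was left out (adjusted p up to 0.14, without DEN_KO 3), and Hist1h2ab when any 1 of 7 was (up to 0.14, also without DEN_KO 3).

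**Figure D3:**
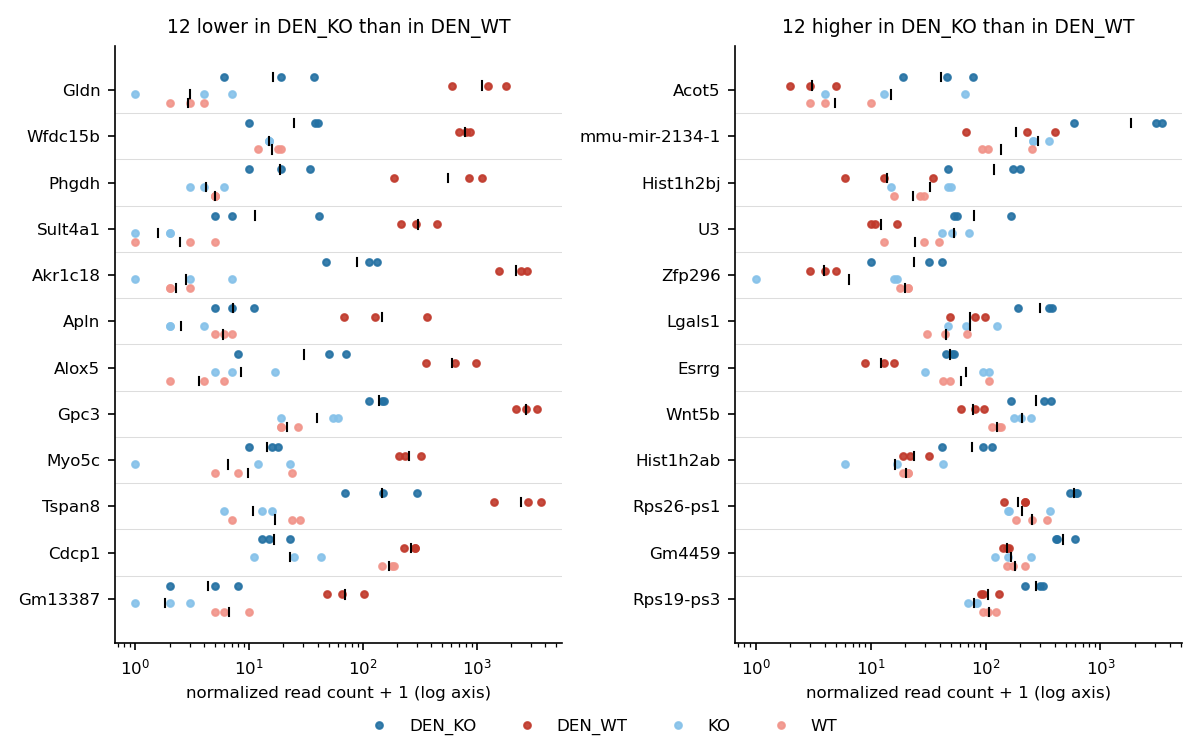
Normalized read count + 1 (horizontal axis, log scale) of the 12 genes that fell most and the 12 that rose most in DEN_KO against DEN_WT among genes at wild-type-only regions. Each point is 1 library, black ticks are the geometric means of 3; for the 12 that fell, all DEN_WT points lie to the right of all DEN_KO points, with Gpc3 at 113 to 153 in DEN_KO and 2224 to 3385 in DEN_WT.

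Across all 520 genes, 12 read at least 10 in every DEN_WT library and below 10 in every DEN_KO library (2.31%; 0.402% of all genes in the table), and 2 the reverse (0.385%; 0.580% of all genes). The first share was 0.317% at shared regions and 0.620% at knockout-only regions. This class needs 10 in every DEN_WT library, so it favours genes that passed the filter through DEN_WT alone. Those were 18.1% of the tested genes at wild-type-only regions and 3.16% of all tested genes. No count without them is given, so no conclusion is drawn from these shares. The 12 were Adm2, B4galnt4, Bspry, Celf5, Dlx3, Efna4, Gm13387, Gpr176, Kbtbd13, Mtap1b, P2rx5 and Shisa4, listed after their values were seen. Adm2, the hormone adrenomedullin-2, read 1, 3 and 1 in DEN_KO and 18, 52 and 49 in DEN_WT. Dlx3, a homeobox transcription factor of epidermis and placenta, read 3, 6 and 2 against 16, 53 and 109 (-3.41 ± 0.70, limma adjusted p = 0.0025). Dlx3 and Gm13387 passed the filter through DEN_WT alone, and whether others of the 12 did is not given.

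Many of the genes were also called with DEN in wild type livers. In DEN_WT against WT 120 of the 276 rose (43.5%; background 16.1%) and 14 fell (5.07%; background 13.5%; 7 fell without WT 2 or DEN_WT 2), with 134 called in all (background 29.6%) and a median of 0.93 against -0.02 over all tested genes. Without the genes that passed the filter through DEN_WT alone, 85 of 226 rose (37.6%; background 15.1%) and 14 fell (6.19%; background 13.9%), 99 in all (background 29.1%), with a median of 0.65. Akr1c18 rose by 9.91 ± 0.59 (limma adjusted p = 4.2e-07), on 1, 2 and 1 in WT. Gm7092, a predicted protein-coding gene, read 218, 377 and 310 in DEN_WT and 0 in all 3 WT libraries. Of the 300 genes below 10 in every WT library, 53 reached 10 in every DEN_WT library (17.7%; 1.75% of 21660 such genes in the whole table). Genes that passed the filter through DEN_WT alone, such as Gldn, are in this count. Genes that fell with DEN included Esrrg (-2.30 ± 0.48, limma adjusted p = 0.0028), at 15, 8 and 12 in DEN_WT against 48, 106 and 42 in WT, and Cd59b, a complement inhibitor (-1.60 ± 0.29, adjusted p = 0.0013). Acsl6, a long-chain acyl-CoA synthetase, and the semaphorin Sema5b were lower by calls that single libraries decided (adjusted p up to 0.13 and 0.17 without WT 3).

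The wild-type-only regions were listed in DEN-treated wild type livers, so the DEN_WT libraries and the regions describe the same group.

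Fewer of them were called with DEN in the knockout. In DEN_KO against KO 47 rose (17.0%; background 8.91%) and 3 fell (1.09%; background 6.02%), 50 in all (background 14.9%), with a median of 0.40. Without the genes that passed through DEN_WT alone, 38 of 226 rose (16.8%; background 8.98%) and 3 fell (background 6.21%), 41 in all (background 15.2%). Without DEN_KO 2 the number that rose was 24, and those that fell numbered 1 without KO 2 or DEN_KO 3 and 6 without DEN_KO 1. Both DEN comparisons share no library, and 38 genes rose in both, 80.9% of those that rose in knockout and 31.7% of those that rose in wild type livers. Over all tested genes those shares were 26.8% and 14.8%. The shares among the 276 genes start from higher rates. In DEN_WT against WT 43.5% of them rose, against 16.1% of all tested genes, and in DEN_KO against KO 17.0% rose, against 8.91%. Genes that passed through DEN_WT alone are included in these overlaps. Of the 288 genes below 10 in every KO library, 11 reached 10 in every DEN_KO library (3.82%; 0.999% over the table).

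The difference between the DEN effects was itself tested as an interaction, the DEN effect in knockout minus that in wild type livers. It was negative and past the threshold in 60 of the 276 genes (21.7%; background 7.83%) and positive in 7 (2.54%; background 8.73%), 67 in all (background 16.6%). Without the genes that passed through DEN_WT alone it was negative in 44 of 226 (19.5%; background 7.57%) and positive in 7 (3.10%; background 9.02%), 51 in all (background 16.6%), with a median of -0.52. Without DEN_KO 3 the negative calls numbered 36, the positive ones 4 and those in all 40, and the positive ones also numbered 4 without WT 1, WT 2, DEN_WT 1 or DEN_KO 2. Gldn had the most negative value (-6.18 ± 1.06 SE, limma adjusted p = 0.0031), followed by Alox5 (-5.53 ± 1.05, adjusted p = 0.005) and Gpc3 (-5.20 ± 0.52, adjusted p = 0.00048). Of these Gldn passed the filter through DEN_WT alone. The 5 largest of the positive calls were Zfp296 (4.22), Rps26-ps1 (1.91), Cd59b (1.88), Rps19-ps3 (1.84) and Gm4459 (1.73). In Gpc3 DEN raised the level by 1.80 ± 0.37 in knockout and by 7.0 ± 0.37 in wild type livers.

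**Figure D4:**
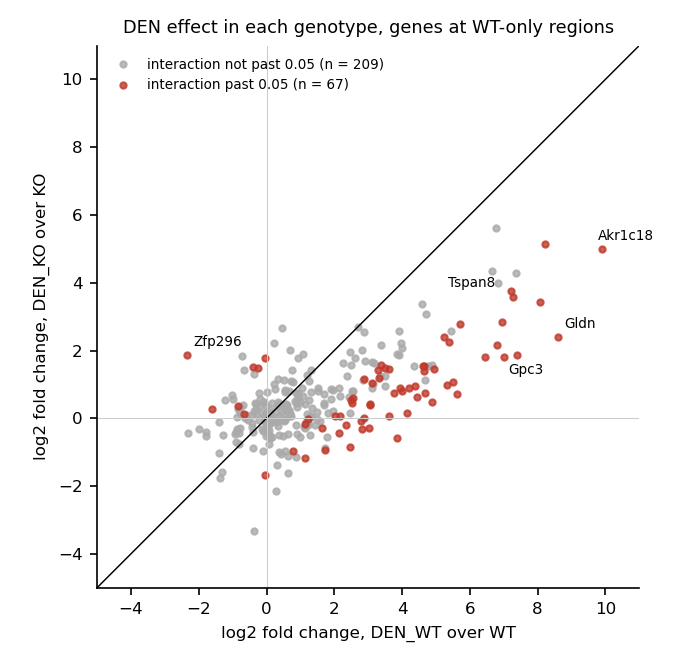
Log2 fold change with DEN in knockout livers (vertical axis, DEN_KO over KO) against that in wild type livers (horizontal axis, DEN_WT over WT) for the 276 tested genes at wild-type-only regions; the diagonal marks equal effects. Red points are the 67 genes past the threshold of the interaction, and 60 of them lie below the diagonal.

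Few of these genes were called between the genotypes in untreated livers. In KO against WT 5 of 276 were called (1.81%; background 1.16%), 4 lower (background 0.613%) and 1 higher (background 0.546%), with 42 at an unadjusted p under 0.05 and a median of 0.01. Cdcp1 read 10, 24 and 42 in KO and 187, 145 and 178 in WT (-2.90 ± 0.41, limma adjusted p = 0.0035), and in treated livers 22, 14 and 12 in DEN_KO against 283, 228 and 288 in DEN_WT. Cdcp1 was low in all 6 knockout libraries with or without DEN, and its DEN effect did not pass the threshold in either genotype. Slc35f2, a solute carrier, and C530028O21Rik were also lower in KO, and Nat8l, which makes N-acetylaspartate, was higher. Those 3 calls were lost without single libraries, at adjusted p values up to 0.19 (Slc35f2, without WT 2), 0.14 (C530028O21Rik, without WT 2) and 0.093 (Nat8l, without KO 2).

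The pseudogene Rps2-ps10 was the fifth. It read 374, 306 and 856 in KO and 5505, 3753 and 3359 in WT (-3.15 ± 0.42, limma adjusted p = 0.0029), and shares reads with near-identical copies of Rps2. The count of 5 became 3 without WT 2, 2 without KO 2 and 12 without KO 3.

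Library by library, the median level of these genes was highest in the DEN_WT livers. On the log2(value + 1) scale the median over the 276 genes was 4.70, 5.19 and 4.39 in DEN_KO, 5.89, 5.94 and 6.08 in DEN_WT, 4.32, 4.25 and 4.09 in KO and 4.13, 4.13 and 4.25 in WT. DEN_KO 2 stood above the other DEN_KO livers, and every DEN_KO library lay between DEN_WT and the untreated livers. Without the genes that passed through DEN_WT alone the medians were 5.34, 5.63 and 5.09 in DEN_KO, 6.26, 6.10 and 6.34 in DEN_WT, 4.93, 4.93 and 4.81 in KO and 4.58, 4.61 and 4.86 in WT, with DEN_WT again highest. Over all tested genes the medians ran from 7.77 to 7.94 in every library.

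Among gene lists of liver biology, tumour and fetal liver markers met these regions most often. Such markers had 52 entries in the RNA table, of which 11 started at a wild-type-only region (21.2%; 1.38% of all genes), 21 at a shared region, 3 at a knockout-only region and 17 at none. The 11 were Akr1c18, Bex1, Bex2, Cd24a, Cdcp1, Gpc3, Hmga2, Krt23, Lin28b, Ly6d and Tspan8. Of the 10 tested, 8 fell in DEN_KO against DEN_WT and none rose (median -2.90), and over the whole list 17 of 49 fell and 4 rose (median -1.16). The background was 17.4% lower and 16.4% higher of all tested genes. The list was drawn up with earlier results of these data known, so the count is a description only.

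Individual members differed. Tspan8, a tetraspanin raised in several carcinomas, read 149, 295 and 69 in DEN_KO and 1416, 2848 and 3704 in DEN_WT (-4.08 ± 0.61, limma adjusted p = 0.00038). Ly6d, a surface protein of epithelial and early B cells, read 88, 1883 and 83 in DEN_KO against 538, 517 and 2035 in DEN_WT, and these groups overlapped (-1.78 ± 0.93, adjusted p = 0.16). Hmga2, a chromatin protein of embryonic tissue, was low at 2, 8 and 2 against 14, 14 and 7 (-1.49 ± 0.56, adjusted p = 0.055). Lin28b, which blocks let-7 maturation, did not exceed 5 in any library and was not tested.

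Bex1 and Bex2, small proteins first described in brain, belong to a run of genes on the X chromosome. Bex2, Bex4, Bex1 and Ngfrap1 each start in a wild-type-only region of their own, spread over 202 kb, at chrX:132601987-132602831, chrX:132673487-132674649, chrX:132749215-132750256 and chrX:132804660-132805441. Bex2, Bex4 and Ngfrap1 were added after their values were seen. Bex1 read 60, 210 and 18 in DEN_KO and 517, 838 and 522 in DEN_WT (-3.29 ± 0.72, limma adjusted p = 0.0039). Ngfrap1, a Bex family member, read 38, 74 and 15 against 207, 341 and 198 (-2.75 ± 0.46, adjusted p = 0.00081). Bex2 fell by 2.50 ± 0.59 (adjusted p = 0.0058) and Bex4 by 3.14 ± 0.69 (adjusted p = 0.0039) on the log2 scale. Bex4 passed the filter through DEN_WT alone. Bex1 and Bex2 are close in sequence, so reads may be split between them.

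The neighbours in between were listed differently and moved in the same direction. Tceal8, Tceal5 and Wbp5 start at regions present in both lists, and they too fell, Tceal8 with 391, 262 and 165 in DEN_KO against 957, 1635 and 1427 in DEN_WT (-2.34 ± 0.34, limma adjusted p = 0.00032). Tceal5 fell by 3.35 ± 0.71 (adjusted p = 0.0031) and Wbp5 by 1.95 ± 0.31 (adjusted p = 0.00052). Tceal5 passed the filter through DEN_WT alone. Arxes1, Arxes2 and Tceal7, also at wild-type-only regions, did not exceed 10 in any library. In this stretch genes at regions of both lists and genes at wild-type-only regions were lower.

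**Figure D5:**
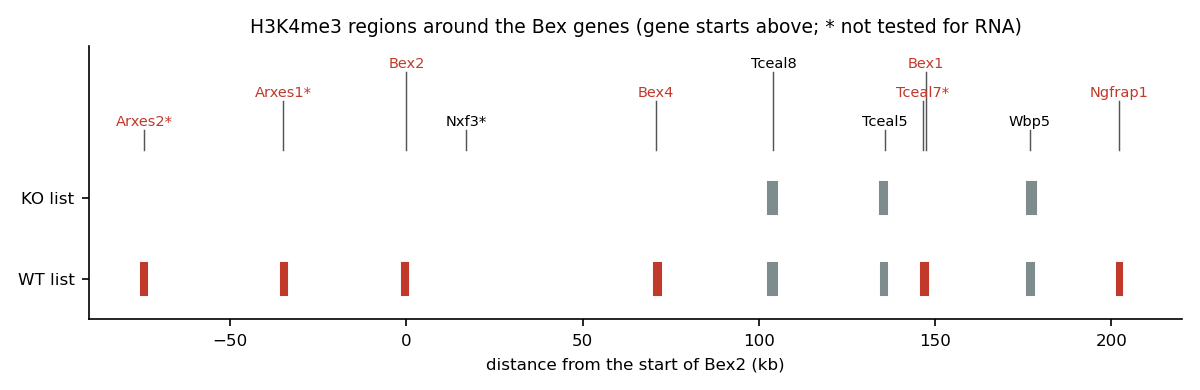
H3K4me3 regions around the Bex genes, by distance from the start of Bex2 (horizontal axis, kb), in the knockout list (upper row) and the wild type list (lower row); grey regions are in both lists and red ones in wild type only, with gene starts above (red names are genes at wild-type-only regions). Bex2, Bex4, Bex1 and Ngfrap1 start at red regions, while Tceal8, Tceal5 and Wbp5 start at grey ones.

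Other lists touched the regions at a few genes. Developmental transcription factors gave 8 entries of 240 (3.33%; 1.38% of all genes), namely Dlx3, En2, Foxc2, Gli1, Lhx2, Pou3f1 (2 entries) and Prdm16. Of these 3 were tested, and 1, Dlx3, fell. En2, Foxc2, Gli1 and Pou3f1 read at most 10 in every library, so at those starts a listed region stood beside hardly any RNA. Of the epithelial-mesenchymal, TGF-beta and matrix list 5 of 101 met the regions (Fbln1, Inhbb, Itga2, Timp1 and Twist2), and of the 4 tested Itga2 and Inhbb fell. Itga2, a collagen-binding integrin, read 6, 11 and 2 in DEN_KO and 36, 54 and 46 in DEN_WT (-2.86 ± 0.71, limma adjusted p = 0.008). It passed the filter through DEN_WT alone. Inhbb, the activin B subunit, fell by 1.54 ± 0.45 on the log2 scale (adjusted p = 0.019), a call lost without DEN_WT 2, DEN_WT 3 or DEN_KO 3 (up to 0.087, without DEN_KO 3).

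Cell division genes were nearly all at shared regions, 54 of 62, and 2 met wild-type-only regions. Bub1b, a spindle checkpoint kinase, read 22, 35 and 22 in DEN_KO against 43, 123 and 46 in DEN_WT (-1.25 ± 0.45, limma adjusted p = 0.045), and lost its call when any 1 of 7 libraries was left out (adjusted p up to 0.22, without DEN_WT 2). Cdc20, the anaphase activator, did not pass (-0.77 ± 0.63, adjusted p = 0.37). Serpina12, the secreted serpin vaspin, fell by 1.83 ± 0.64 on the log2 scale (adjusted p = 0.041), and that call too was lost when any 1 of 7 libraries was left out (up to 0.13, without DEN_WT 3).

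Among P450 and drug metabolism genes 1 of 110 was at a wild-type-only region, Cyp2b13, a female-biased P450, and it did not pass (-1.43 ± 0.65, limma adjusted p = 0.11). Of interferon genes 1 of 67 was, Gbp3, which did not pass either (-0.28 ± 0.34, adjusted p = 0.55). No member started at a wild-type-only region in the lists of hepatocyte identity (0 of 34, all at shared regions), transport (0 of 36), metabolism (0 of 69), growth signalling and proto-oncogenes (0 of 115, with 97 at shared regions), macrophage (0 of 36), lymphocyte and neutrophil (0 of 55), endothelial (0 of 40), circadian (0 of 21) and SMYD and H3K4 enzyme genes (0 of 28). Such starts made up only 1.38% of all genes and 1.80% of protein-coding genes. At that share lists of these sizes would hold few members or none, so no avoidance is read from these counts.

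Of the list of cholangiocyte (bile duct cell) markers 3 of 26 started at wild-type-only regions, Bicc1, Cd24a and Tspan8, and all 3 fell in DEN_KO against DEN_WT. Over the whole list, with these 3 among them, 11 of 24 tested genes fell and 1 rose (median -0.68; background 17.4% and 16.4% of all tested genes). The part of this cell type in the results was not tested. Bicc1, an RNA-binding protein of kidney and duct epithelium, read 48, 69 and 69 in DEN_KO and 341, 221 and 531 in DEN_WT (-2.46 ± 0.34, limma adjusted p = 0.00026). Cd24a, a surface glycoprotein of progenitor and duct cells, read 30, 50 and 21 against 149, 82 and 124 (-1.83 ± 0.45, adjusted p = 0.0071).

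The defining markers of stellate cells, 7 genes, summed to 3597 to 4461 in DEN_KO and 4861 to 8050 in DEN_WT, and 4 of the 7 fell. Macrophage markers summed to 11137 to 14666 in DEN_KO and 3756 to 12321 in DEN_WT, overlapping ranges, and 2 of the 9 rose and 0 fell. Over the wider list of macrophage markers 8 of 36 tested genes fell and 4 rose (median 0.19). The background for these stellate and macrophage counts was 17.4% lower and 16.4% higher of all tested genes. None of the defining stellate and macrophage markers was at a wild-type-only region, none was at 0 in every library, and their part in the results was not tested.

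The longest wild-type-only region, chr16:3231496-3241685 (10190 bp), was intergenic, 7899 bp from a gene start. The longest with a gene start, chr8:20017788-20023008 (5221 bp), lies at the pseudogene 2610005L07Rik, which read 744, 603 and 680 in DEN_KO and 828, 883 and 691 in DEN_WT, without a call (-0.24 ± 0.16, limma adjusted p = 0.27). At the next, chr17:66795538-66800628 (5091 bp, 2 Smyd3 peaks), 1110012J17Rik read 22, 60 and 15 in DEN_KO against 196, 497 and 589 in DEN_WT (-3.78 ± 0.52, adjusted p = 0.00024). A 4070 bp region, chr19:46415553-46419622, lies at Tmem180 and at Mir146b, a microRNA of inflammatory signalling. The Mir146b entry read 9, 88 and 8 in DEN_WT and 0 in all other libraries, too low to be tested, and mRNA libraries of this kind do not measure the mature microRNA. Tmem180 was not called in DEN_KO against DEN_WT (0.31 ± 0.25, adjusted p = 0.36).

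The regions farthest from any knockout region and beside a gene with a mean of at least 100 were of another kind. Of the 5 regions 4 were 181 to 195 bp long and lay at Gm15210, Tpm3-rs7, Gm1818 and Gm13532, entries named as predicted genes or as a related sequence. Gm15210 and Tpm3-rs7 were not called in DEN_KO against DEN_WT (limma adjusted p = 0.66 and 0.63), and Gm1818 and Gm13532 were slightly higher (0.71 ± 0.25 and 1.00 ± 0.35, adjusted p = 0.043 and 0.042), calls lost when any 1 of 7 libraries (Gm1818) or of 8 (Gm13532) was left out, at adjusted p up to 0.16 (without DEN_KO 2) and 0.15 (without DEN_WT 3). The fifth was at Thsd4, a matrix protein that binds fibrillin, 271777 bp from a knockout region. It read 28, 68 and 53 in DEN_KO and 220, 535 and 475 in DEN_WT (-3.01 ± 0.47, adjusted p = 0.00051).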

How the data were processed

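RNA of 12 livers was given as 1 table of read counts per gene that the authors had normalized and rounded (used as a score and not as raw counts), with the GC content of each gene as a fraction, per the file headers. H3K4me3 and Smyd3 regions were deposited as lists on mm9 with a score of 0 in every line. Pol II and input libraries were left unanalysed. Per the submitters' processing notes the tools were cutadapt, TopHat2 2.0.9, Cufflinks, Bowtie2 and DESeq, with no roles given. The peak caller, the gene counter, its use of strand and how 2 ChIP replicates became 1 list are not stated in the sources used here.

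Regions were intersected with bedtools 2.31.1 (1 bp). Genes that reached 10 in 3 or more libraries (16471 of 37583) were tested with limma 3.58.1 in R 4.3.3 on log2(value + 1), in a fit of 4 groups with trend and 8 residual degrees of freedom. Benjamini-Hochberg adjustment ran over all tested genes. The script was tested on simulated data. An exact test of 3 against 3 cannot go below p = 0.1, so single-gene permutation tests were not used. No column of another sample was present.

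Named genes were the 12 of largest change in each direction in DEN_KO against DEN_WT, 5 in each direction in KO against WT, DEN_WT against WT and the interaction, called members of 17 gene lists (at most 4 a list), and genes at the 5 longest and 5 farthest regions. Other list members, the Bex neighbours and Adm2 were named after their values were seen. Members, lists and rules were chosen with earlier results of these data known. Alternatives covered the pseudocount, filter, scaling, weights, replicate block, overlap rule, window and each library left out. The summed level of the defining duct cell markers is not reported here. The replicate numbers did not pair the libraries.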

Additional observations from a re-analysis of the deposited data

Results flagged for a closer look

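For 23 of the named genes the DEN effect differed between the genotypes by the interaction in limma (adjusted p below 0.05), given here as the log2 effect in knockout minus that in wild type livers. It was negative for Gldn (-6.18), Alox5 (-5.53), Gpc3 (-5.20), Wfdc15b (-4.91), Akr1c18 (-4.90), Phgdh (-4.65), Bex1 (-4.63), Itga2 (-4.46), 1110012J17Rik (-4.33), Sult4a1 (-4.12), Dlx3 (-3.94), Tspan8 (-3.44), Nat8l (-3.29), Apln (-3.09), Gm7092 (-3.06), Thsd4 (-3.02), Inhbb (-2.12) and Bub1b (-2.02). It was positive for Zfp296 (4.22), Rps26-ps1 (1.91), Cd59b (1.88), Rps19-ps3 (1.84) and Gm4459 (1.73). Gldn, Phgdh, Itga2, Sult4a1, Dlx3 and Apln passed the filter through DEN_WT alone, so their negative sign was nearly set beforehand. Of the 23, 16 kept an adjusted p below 0.05 when any 1 library was left out. The other 7 did not, with adjusted p up to 0.11 for Bub1b (without DEN_WT 2), 0.096 for Gm7092 (without DEN_WT 2), 0.092 for Zfp296 (without DEN_KO 3), 0.088 for Inhbb (without WT 2), 0.058 for Apln, 0.056 for Sult4a1 and 0.054 for Nat8l (each without DEN_KO 3).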

How the results depend on the processing

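No result changed direction under the alternatives run. Of 245 gene and comparison pairs named, over 21 settings of the fit, 4688 values kept their side of the threshold, 275 fell short of it and 83 came past it. Only 118 of the 245 pairs were called in the main fit. In DEN_KO against DEN_WT 41 named genes were called, of which 15 lost the call in at least 1 setting and 8 when 1 library was left out. In DEN_KO against DEN_WT the 120 called genes (98 lower, 22 higher) numbered 78 (64 and 14) with mice 1 and 2 only, and 209 (169 and 40) where sharing needed at least 50 percent of a wild type region to be covered. Higher calls numbered 12 without regions under 500 bp, 14 with starts inside regions and 42 within 5000 bp. The median of -0.82 became -0.45 with no filter, -1.0 at a minimum of 50, -0.66 under that coverage rule, -1.09 without short regions (which left 1001 of the 2123), -1.03 with starts inside, -0.53 within 5000 bp and -0.57 without genes that passed through DEN_WT alone (chosen after seeing the data, like the settings without X and Y and without the dense windows, which kept 91 and 98 lower calls). In KO against WT the 5 calls (4 lower, 1 higher) became 35 (19 and 16) with array weights, 2 (2 and 0) at a minimum of 50 and 3 (2 lower) with the replicate block, while the higher calls numbered 0 at a pseudocount of 8, and with no filter 2 were lower and 2 higher. In DEN_WT against WT the 134 calls (14 lower, 120 higher) became 87 (76 higher) at a minimum of 50, and the lower ones 9 with no filter, 4 with equal sums and 9 with mice 1 and 2 only. In DEN_KO against KO the 50 calls (3 lower, 47 higher) became 80 (15 lower) with array weights and 30 (27 higher) with mice 1 and 2 only, and quantile scaling gave 8 lower and 30 higher. The interaction's 67 calls (60 negative, 7 positive) became 107 (91 and 16) with array weights and 31 (24 negative) with mice 1 and 2 only; negative calls numbered 39 at a minimum of 50 and positive ones 4 with no filter. Leaving out 1 library gave, in DEN_KO against DEN_WT, 96 to 125 calls, 81 to 102 lower, 14 to 23 higher and medians of -0.96 to -0.78. It gave 2 to 12 calls in KO against WT (2 to 7 lower, 0 to 5 higher; lower calls were 2 without WT 2, WT 3 or KO 2, and higher ones 2 without WT 3 or DEN_WT 3). It gave 115 to 141 calls in DEN_WT against WT (7 to 18 lower, 108 to 125 higher; lower calls were 9 without WT 1 or DEN_WT 3 and 8 without WT 3), 27 to 50 in DEN_KO against KO (1 to 6 lower, 24 to 46 higher) and 40 to 67 in the interaction (36 to 63 negative, 4 to 10 positive). The cause of these moves was not tested. The replicate block gave 111 calls in DEN_KO against DEN_WT (94 lower, 17 higher). Same-numbered libraries of different groups had deviations correlated at r from -0.0996 to 0.12 over 18 pairs, 1 of them above 0.1. No library correlated best with its own number in every other group at once. Low genes limit the counts: 244 of the 520 genes could not be tested.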

Other observations

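Wild-type-only regions lay more often on the X chromosome, with 175 of 2123 (8.24%), than regions shared by both lists (3.67%), and knockout-only regions did so too (7.39%). Of the 1017 intergenic wild-type-only regions 102 (10.0%) overlapped a Smyd3 peak, against 27.6% of shared and 14.5% of knockout-only intergenic regions. The shortest wild-type-only regions, of up to 250 bp, numbered 713 (33.6%), and 6.31% of them overlapped a Smyd3 peak, against 41.8% of those between 1000 and 2000 bp. The levels behind these lists cannot be compared, since the lists carry no height.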
